A study of Mus musculus with 10 samples.

Results

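The genes described here are 39 interferon response and antigen presentation genes of the mouse, read on 10 Affymetrix whole-transcript arrays. They were chosen by symbol, as the probe sets to which the platform annotation gives exactly that symbol, with the brightest probe set kept where a gene had several. By this rule 36 of the 39 were found, among 22180 genes with such a probe set. Irf8, Ifi35 and Tapbp each had 2 of these, and levels of the dimmer probe set are not given here. Gbp2 and H2-D1 are listed only on probe sets shared with another symbol, Ifi44 is not listed under its own symbol, and these 3 are not analysed here. A gene entered the test where its mean over all arrays reached the 25th percentile of all probe sets, a log2 level of 5.32. That left 35 of the 36, since Ifit2, an interferon-induced RNA-binding protein, read between 4.96 and 5.39 on the 10 arrays.

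The arrays carry RNA of mouse cortical cells that were FACS-sorted for EGFP, a fluorescent reporter made by astrocytes, the glia that surround synapses and vessels. Of the mice, all 8 weeks of age, the Control group is labelled wild-type and the other group FMR1_KO, with 5 arrays in each, and the stated comparison is between these groups. The sample titles call the arrays of each group biological replicates. The promoter that drives EGFP, the Fmr1 allele and whether each array holds 1 animal or a pool were not given. The spread between these samples, on which all p-values rest, may be technical in part. Values are log2 signal per probe set, and a level of one probe set is not comparable with that of another.

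Interferons are secreted signals of infection. Type I interferons act through a complex that holds STAT2 and IRF9 and binds the interferon-stimulated response element in gene promoters, while IRF1 takes part in the response to interferon gamma. The induced genes encode antiviral proteins and the machinery that cuts proteins in the immunoproteasome, moves the peptides through the TAP transporter and loads them on MHC class I molecules for display to T cells. In the brain, microglia are the resident macrophages, they respond strongly to interferon, and they need the transcription factor IRF8.

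The promoters show what many of these genes share. RefSeq promoter sequences of GRCm38.p6, from 250 bases before to 50 bases after each start, were matched by symbol for 33 of the 39 genes, with 39 promoters in all. Mx1, Parp14, Oas2, Usp18, Tap2 and Ifi27 are named without a sequence. The core of the response element was searched as GAAANNGAAA on either strand, which reads TTTCNNTTTC on the other. It was present in 16 of the 39 promoters, belonging to 16 genes, against 3.44% of all 32851 promoters of the same length. The interferon gamma core TTCNNNGAA reads the same on both strands and may overlap the longer motif. It was present in 8 of the 39 promoters, belonging to 8 genes, against 8.30% of all promoters. The windows below, all upstream of the start and written 5′ to 3′ on the gene's strand with matched bases in capitals, are from antiviral effectors, GTPases and class I genes whose levels are given further on.
Isg15, chr4:156200860-156200911, minus strand: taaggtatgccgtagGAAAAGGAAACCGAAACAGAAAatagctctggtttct
Ifit1, chr19:34640770-34640828, plus strand: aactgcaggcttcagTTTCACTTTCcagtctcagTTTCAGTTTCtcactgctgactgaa
Ifit3, chr19:34583358-34583431, plus strand: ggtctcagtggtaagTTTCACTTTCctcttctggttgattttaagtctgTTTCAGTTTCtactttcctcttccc
Rsad2, chr12:26456548-26456587, minus strand: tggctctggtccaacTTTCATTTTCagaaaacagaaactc
Bst2, chr8:71537572-71537617, minus strand: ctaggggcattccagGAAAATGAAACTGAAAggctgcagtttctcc
Gbp3, chr3:142559984-142560029, plus strand: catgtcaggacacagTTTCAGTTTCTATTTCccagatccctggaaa
Igtp, chr11:58199507-58199546, plus strand: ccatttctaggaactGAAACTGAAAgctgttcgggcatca
B2m, chr2:122147533-122147572, plus strand: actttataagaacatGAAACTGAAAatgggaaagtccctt
H2-T23, chr17:36032801-36032840, minus strand: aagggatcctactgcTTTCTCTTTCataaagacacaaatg
Isg15 holds 3 overlapping matches and Ifit1 and Ifit3 hold 2 separate ones each, while B2m and H2-T23 of the class I pathway hold 1 each. A match describes the letters of this window and is not a measured binding site.

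Some facts of the arrays bear on all values. Fmr1 itself, the check of the labels, read 8.28, 7.60, 8.03, 8.17 and 8.10 on Control arrays 1 to 5 and 8.32, 8.38, 8.26, 8.15 and 8.01 on the arrays labelled FMR1-KO, with overlapping groups and a difference of 0.19 ± 0.13 (SE) (limma, adjusted p = 0.704). Since the signal was not lower, the second group is called "labelled FMR1-KO" throughout, and the part of Fmr1 that its probe set reads is not known here. Over the genes tested, correlations between arrays ran from 0.903 to 0.990. The female-specific RNA Xist read 10.60 and 10.98 on Control arrays 2 and 3 and at most 5.23 on the other arrays. On those same arrays the Y-linked genes read 4.82 and 4.77 (Uty) and 4.86 and 4.83 (Kdm5d). The others read at least 7.64 and 7.05. By these genes, Control arrays 2 and 3 read as female and all others as male, so sex is unbalanced between the groups. The labels do not state sex, and its part in the group differences was not tested. The mean of 17 astrocyte markers, all above the filter, ran from 9.83 to 10.53 on Control arrays and from 9.99 to 10.95 on the arrays labelled FMR1-KO, so the labelled cell type was read on every array. The mean of 23 microglia markers ran from 9.84 to 10.88 on Control arrays and from 9.13 to 10.53 on the arrays labelled FMR1-KO. It was lowest on the labelled FMR1-KO arrays 2 and 1, at 9.13 and 9.71, and on Control array 1, at 9.84. On these same arrays the astrocyte marker mean was highest, at 10.95, 10.90 and 10.53, so both parts of the cell mix differed there.

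Between the groups, interferon and antigen presentation genes had mostly lower means on the arrays labelled FMR1-KO, and none of the differences passed the test. Of the 35 tested, 30 had a lower and 5 a higher mean, where 53.2% of all 17712 genes tested had a lower mean. Their median difference was -0.15 on the log2 scale, against -0.01 for all genes tested. Limma called 0 of the 35 and 0% of all genes at a Benjamini-Hochberg adjusted p under 0.05. At an unadjusted p under 0.05 there were 3 members, the peptide loading gene Tapbp, the immunoproteasome gene Psmb8 and the GTPase gene Igtp. All 3 were lower, where 7.53% of all genes passed that level in either direction and 3.53% with a lower mean. With quantile normalization or equal array medians on top of the deposited values, 0 of the 35 changed direction. Part of the list moved with microglia markers, as given further on, and in sorted bulk samples fewer cells of a type and less RNA per cell cannot be told apart. The levels of both groups overlapped for each of the 35 genes, where 0.965% of all genes did not overlap. Leaving out 1 array moved the median from -0.22, without Control array 1, to -0.06, without Control array 5, and it was -0.09 without the labelled FMR1-KO array 2. The unadjusted count of 3 was 8 without Control array 1, 1 without Control array 3, 4 or 5, 1 without both Xist-high arrays, 1 and 0 without the labelled FMR1-KO arrays 1 and 2, and 6 without array 3 or 4 of that group. Of all genes, 5.47% passed that level without Control array 5. The shares over all genes in the other fits are not given here, so their counts are not read as a result about these genes.

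**Figure D1:**
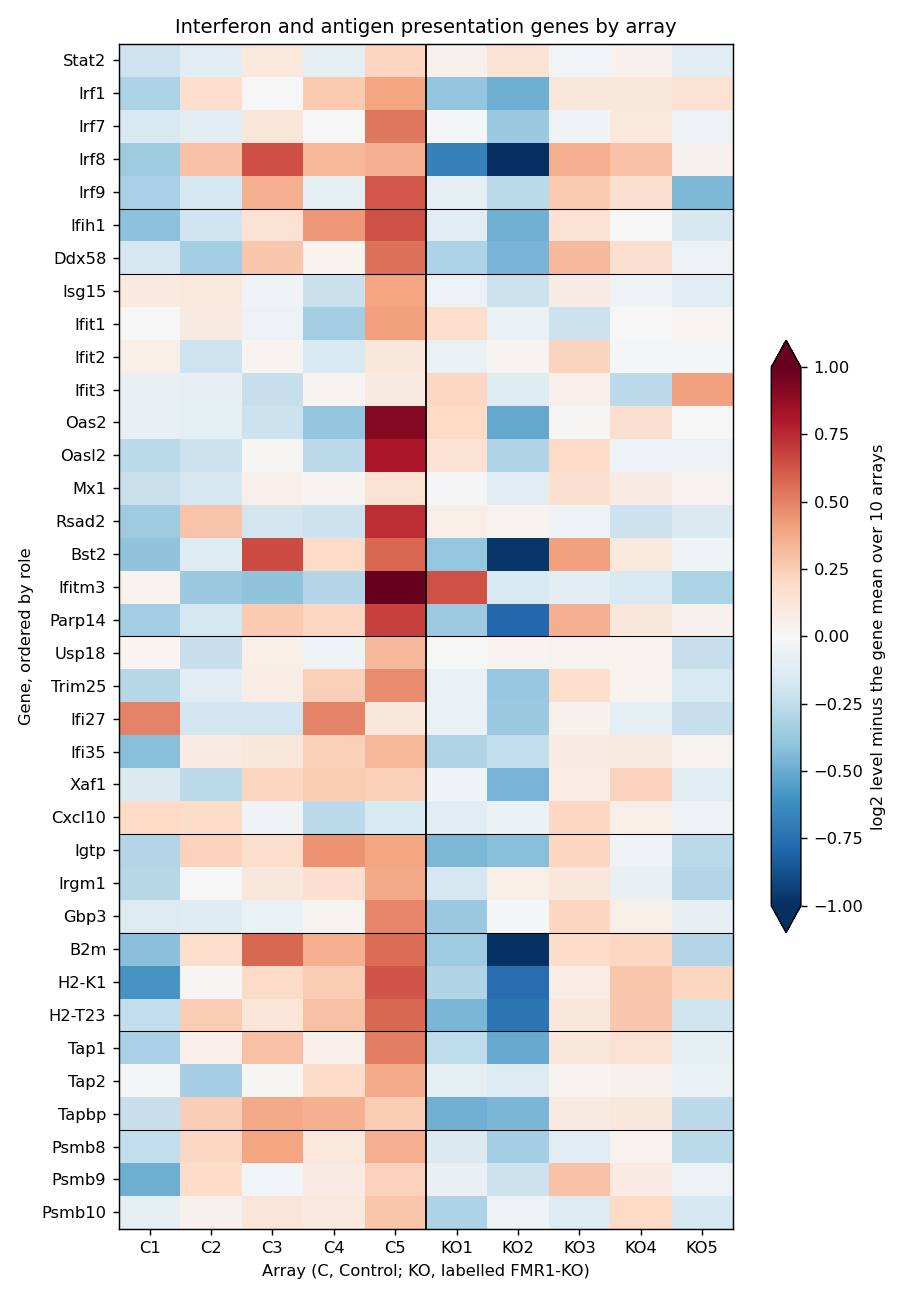
Heat map of the 36 genes found, in rows by role, on the 10 arrays in columns (C, Control; KO, labelled FMR1-KO), coloured by the log2 level minus the gene's mean over all arrays, with colours ending at -1 and 1. The column of Control array 5 is high for most rows, and that of the labelled FMR1-KO array 2 is low for Irf8, Bst2, Parp14 and the class I genes.

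Which array read highest was far from even over these genes. Control array 5 gave the highest level of 23 of the 35 (65.7%), against 13.9% of all genes tested, and the lowest level of 0. The labelled FMR1-KO array 2 gave the lowest level of 17 of the 35, against 17.1% of all genes. Array 5 lay above the mean of the other 4 Control arrays for 33 of the 35 genes, with a median excess of 0.41 on the log2 scale, where the median over all genes was 0.01. With quantile normalization the count on Control array 5 was again 23, against 13.4% of all genes, and with equal array medians it was 25, against 16.4%. Other interferon-induced genes from a separate list had the same array on top for 19 of 31 measured.

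**Figure D2:**
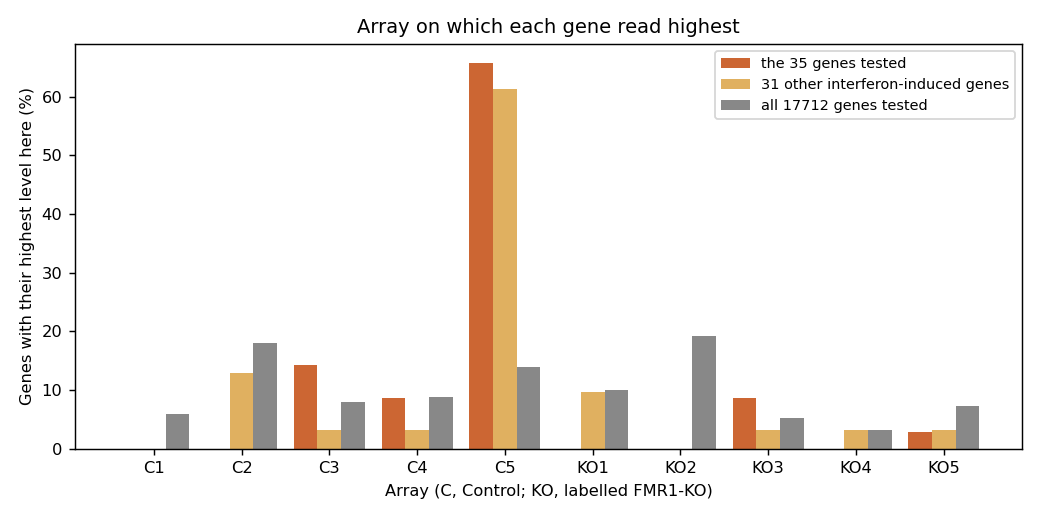
Bars give the percentage of genes whose highest level over the 10 arrays (C, Control; KO, labelled FMR1-KO) was on each array, for the 35 genes tested, 31 other interferon-induced genes and all 17712 genes tested. Control array 5 holds 65.7% of the 35 genes and 61.3% of the other list, against 13.9% of all genes.

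Among the signal transducers and transcription factors, Irf8 had the largest negative difference of the 35 genes, and the other 4 members of this role had their highest level on Control array 5. Irf7, which amplifies type I interferon production, read 6.56, 6.60, 6.83, 6.71 and 7.24 on Control arrays 1 to 5 and 6.69, 6.34, 6.68, 6.82 and 6.65 on the arrays labelled FMR1-KO. Its Control array 5 stood above the 9 others, and the difference was -0.15 ± 0.13 (SE) (limma adjusted p = 0.766). Irf8 read 8.18, 8.83, 9.18, 8.87 and 8.89 on Control arrays and 7.86, 7.25, 8.89, 8.83 and 8.58 on the arrays labelled FMR1-KO. It was lowest on the labelled FMR1-KO arrays 2 and 1 and on Control array 1, the same arrays as the microglia markers, and its groups overlapped. The difference of -0.51 ± 0.30 (SE) was within that spread (limma adjusted p = 0.678). Stat2, a subunit of the type I interferon transcription complex, read 7.60, 7.70, 7.91, 7.71 and 8.02 on Control arrays and 7.85, 7.94, 7.78, 7.85 and 7.70 on the arrays labelled FMR1-KO, a difference of 0.04 ± 0.09 (SE). Its levels spanned 0.42 on the log2 scale over all arrays. Irf9, its DNA-binding partner, differed by -0.15 ± 0.19 (SE) and Irf1 by -0.20 ± 0.16 (SE), with Control array 5 the highest for both.

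Both cytosolic RNA sensors were highest on Control array 5. Ifih1, which encodes the sensor MDA5, read 7.14, 7.35, 7.70, 7.99 and 8.19 on Control arrays 1 to 5 and 7.45, 7.07, 7.70, 7.55 and 7.39 on the arrays labelled FMR1-KO. Ddx58, which encodes RIG-I, read 7.05, 6.88, 7.49, 7.25 and 7.77 on the Control arrays and 6.91, 6.75, 7.54, 7.38 and 7.16 on the others. For each sensor the labelled FMR1-KO array 2 was the lowest of the 10. The differences were -0.24 ± 0.19 (SE) and -0.14 ± 0.19 (SE), with adjusted p = 0.746 and 0.86 in limma.

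The antiviral effectors held the clearest single-array peaks. Ifitm3, a membrane protein that blocks viral entry, read 7.27, 6.86, 6.83, 6.94 and 8.35 on Control arrays 1 to 5 and 7.87, 7.08, 7.13, 7.08 and 6.92 on the arrays labelled FMR1-KO. It was high on Control array 5 and on the labelled FMR1-KO array 1, and between 6.83 and 7.27 on the other 8. Oas2, an enzyme that makes the second messenger which activates RNase L, read 6.30, 6.27, 6.16, 5.98 and 7.29 on Control arrays and 6.57, 5.86, 6.38, 6.53 and 6.37 on the arrays labelled FMR1-KO. Its relative Oasl2 read 5.94, 6.0, 6.22, 5.95 and 7.03 on the Control arrays and 6.36, 5.91, 6.40, 6.15 and 6.16 on the others. Control array 5 was 0.73 above the next array for Oas2 and 0.63 for Oasl2, and the other 4 Control arrays overlapped the arrays labelled FMR1-KO. Rsad2, the antiviral enzyme viperin, read 6.29, 6.93, 6.46, 6.43 and 7.38 on Control arrays and 6.71, 6.68, 6.61, 6.43 and 6.50 on the arrays labelled FMR1-KO, with Control array 5 highest and Control array 2 next. The differences between the groups were -0.03 ± 0.28 (SE) for Ifitm3, -0.06 ± 0.22 (SE) for Oas2, -0.03 ± 0.19 (SE) for Oasl2 and -0.11 ± 0.18 (SE) for Rsad2. Without Control array 5 each of these 4 had a higher mean on the arrays labelled FMR1-KO, by 0.25 ± 0.18 (SE), 0.16 ± 0.14 (SE), 0.17 ± 0.12 (SE) and 0.06 ± 0.13 (SE), with 0 of them past the test. These 4 are grouped here for their high level on that array. Leaving it out must therefore raise each difference, and the change is not a separate result.

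Other effectors showed smaller peaks or none. Isg15, a ubiquitin-like protein joined to other proteins, read 5.72, 5.73, 5.59, 5.40 and 6.02 on Control arrays and 5.57, 5.41, 5.71, 5.58 and 5.52 on the arrays labelled FMR1-KO. Ifit1, which binds viral RNA, read 6.13, 6.23, 6.08, 5.79 and 6.55 on the Control arrays and 6.31, 6.07, 5.92, 6.13 and 6.16 on the others, and Control array 5 was the highest for both genes. Ifit3, a partner of Ifit1, read 7.49, 7.48, 7.33, 7.59 and 7.65 on Control arrays and 7.77, 7.44, 7.61, 7.30 and 7.97 on the arrays labelled FMR1-KO. Here the highest array was number 5 of the labelled FMR1-KO group, and Ifit3 had the largest positive difference of the list, 0.11 ± 0.12 (SE) (limma adjusted p = 0.825). Bst2, the tether that holds budding virus at the cell surface, read 7.08, 7.36, 8.14, 7.68 and 8.06 on Control arrays and 7.10, 6.51, 7.90, 7.59 and 7.44 on the arrays labelled FMR1-KO. Like Irf8 it was lowest on the labelled FMR1-KO array 2, and its difference was -0.35 ± 0.26 (SE) (limma adjusted p = 0.73). Parp14 differed by -0.25 ± 0.23 (SE) and Mx1, a GTPase against influenza and related viruses that read 5.21 to 5.60 near the filter, by 0.06 ± 0.09 (SE).

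**Figure D3:**
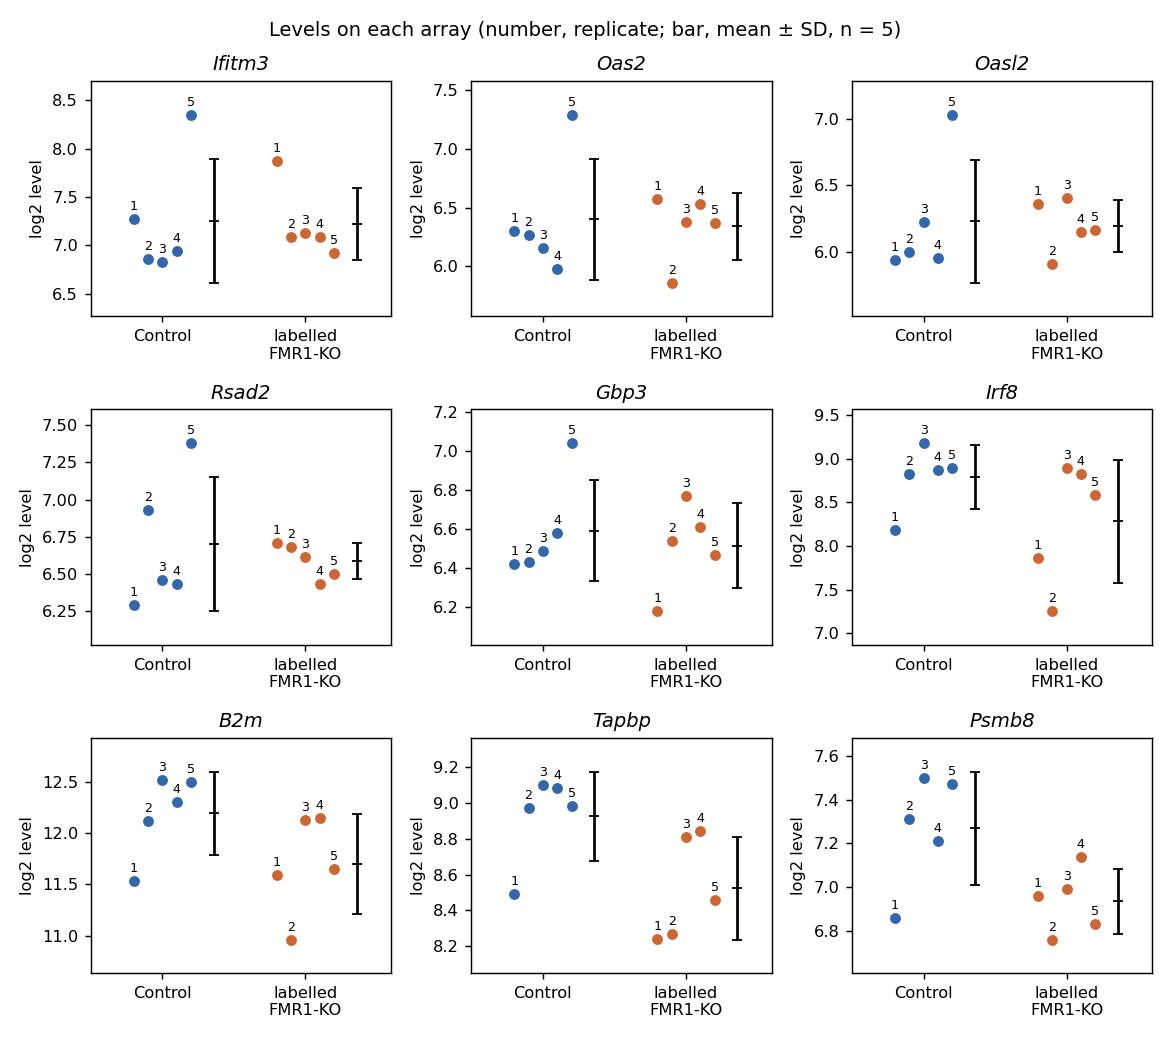
Points give the log2 level on each array (number, replicate) for 9 genes in Control and labelled FMR1-KO groups, with mean ± SD (n = 5) beside them. Ifitm3, Oas2, Oasl2, Rsad2 and Gbp3 stand high on Control array 5, whereas Irf8 and B2m are lowest on Control array 1 and the labelled FMR1-KO arrays 1 and 2, and Control array 1 is the lowest Control array for Tapbp and Psmb8.

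The 6 regulators and other induced genes each spanned 0.47 to 0.87 on the log2 scale over the 10 arrays. Usp18, which removes ISG15 and dampens interferon receptor signalling, read 6.45, 6.20, 6.50, 6.39 and 6.76 on Control arrays and 6.43, 6.46, 6.47, 6.47 and 6.20 on the arrays labelled FMR1-KO. Control array 5 was again highest, and array 5 of the other group lay below its 4 neighbours. Cxcl10, a chemokine that draws in T lymphocytes, read 6.25, 6.24, 6.02, 5.79 and 5.90 on Control arrays and 5.94, 5.99, 6.26, 6.12 and 6.02 on the arrays labelled FMR1-KO. It was one of the genes without a peak on Control array 5, where it differed from the mean of the other Control arrays by -0.17. Ifi27 read 8.68, 7.99, 7.99, 8.68 and 8.30 on Control arrays and 8.12, 7.81, 8.23, 8.09 and 7.95 on the arrays labelled FMR1-KO. Each of the 5 arrays labelled FMR1-KO was below the Control mean, the difference was -0.29 ± 0.15 (SE) (limma adjusted p = 0.67), and Control arrays 1 and 4 were the high ones. Trim25, a ubiquitin ligase that activates RIG-I, differed by -0.16 ± 0.15 (SE), Ifi35 by -0.14 ± 0.14 (SE) and Xaf1 by -0.12 ± 0.14 (SE).

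The interferon-inducible GTPases act on the vacuoles of intracellular microbes. Igtp read 6.55, 7.07, 7.02, 7.29 and 7.24 on Control arrays and 6.39, 6.42, 7.06, 6.81 and 6.57 on the arrays labelled FMR1-KO, a difference of -0.38 ± 0.16 (SE) with a 95% interval of -0.74 to -0.03 (limma adjusted p = 0.654). It was lowest on the labelled FMR1-KO arrays 1 and 2 and on Control array 1. Gbp3 read 6.42, 6.43, 6.49, 6.58 and 7.04 on Control arrays and 6.18, 6.54, 6.77, 6.61 and 6.47 on the arrays labelled FMR1-KO, with Control array 5 highest, and differed by -0.08 ± 0.14 (SE). Irgm1 differed by -0.15 ± 0.12 (SE).

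MHC class I molecules had the lowest median difference of the groups, -0.40 over 3 genes. B2m, the light chain shared by all class I molecules, read 11.53, 12.12, 12.52, 12.30 and 12.50 on Control arrays 1 to 5 and 11.59, 10.96, 12.13, 12.15 and 11.65 on the arrays labelled FMR1-KO. Each array labelled FMR1-KO lay below the Control mean of 12.2, and the difference was -0.50 ± 0.24 (SE) with a 95% interval of -1.02 to 0.03 (limma adjusted p = 0.656). The classical heavy chain gene H2-K1 read 7.73, 8.33, 8.51, 8.57 and 8.95 on Control arrays and 8.02, 7.56, 8.39, 8.60 and 8.53 on the arrays labelled FMR1-KO, a difference of -0.20 ± 0.24 (SE). H2-T23, the mouse Qa-1 molecule seen by natural killer receptors, read 6.65, 7.15, 7.02, 7.19 and 7.47 on the Control arrays and 6.44, 6.17, 7.01, 7.17 and 6.70 on the others, a difference of -0.40 ± 0.19 (SE) (limma adjusted p = 0.657). In these 3 genes the lowest arrays were the labelled FMR1-KO arrays 1 and 2 and Control array 1. Class I heavy chains are near-identical paralogs, so the value of H2-K1 may hold signal of others.

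In peptide loading, Tapbp had the smallest unadjusted p of the list. It encodes tapasin, which bridges the transporter and empty class I molecules, and read 8.49, 8.97, 9.10, 9.08 and 8.98 on Control arrays and 8.24, 8.27, 8.81, 8.84 and 8.46 on the arrays labelled FMR1-KO. The difference was -0.40 ± 0.15 (SE) with a 95% interval of -0.73 to -0.07 (limma, unadjusted p = 0.0221, adjusted p = 0.654), with 5 of 5 arrays labelled FMR1-KO below the Control mean. Control array 1 stood apart from its group and lay within the range of the other. Tap1, a subunit of the peptide transporter, read 7.72, 8.10, 8.34, 8.10 and 8.56 on Control arrays and 7.79, 7.54, 8.16, 8.20 and 7.95 on the arrays labelled FMR1-KO, with Control array 5 highest, and differed by -0.24 ± 0.16 (SE). Its partner Tap2 differed by -0.09 ± 0.12 (SE).

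The immunoproteasome subunits replace standard catalytic subunits and change which peptides are cut. Psmb8 read 6.86, 7.31, 7.50, 7.21 and 7.47 on Control arrays and 6.96, 6.76, 6.99, 7.14 and 6.83 on the arrays labelled FMR1-KO, a difference of -0.33 ± 0.13 (SE) with a 95% interval of -0.61 to -0.06 (limma, unadjusted p = 0.0225, adjusted p = 0.654). All 5 arrays labelled FMR1-KO were below the Control mean of 7.27, and Control array 1, at 6.86, lay within their range. Psmb10 read 7.73, 7.86, 7.94, 7.92 and 8.10 on the Control arrays and 7.51, 7.77, 7.69, 8.02 and 7.66 on the others, a difference of -0.18 ± 0.10 (SE). Psmb9, which shares the assembly with Psmb8, differed by 0.01 ± 0.14 (SE) and ran from 5.71 on Control array 1 to 6.49 on the labelled FMR1-KO array 3.

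Microglia markers moved with part of the list. Irf1, Irf8, Bst2, Parp14, Ifi35, Igtp, B2m, H2-K1, H2-T23, Tap1 and Psmb9 had as their 3 lowest arrays Control array 1 and the labelled FMR1-KO arrays 1 and 2. That made 11 of the 35, against 22 of 23 microglia markers, 0 of 17 astrocyte markers and 7.24% of all genes tested. The microglia marker mean was 10.6 ± 0.44 (SD, n = 5) on Control arrays, and its value in the group labelled FMR1-KO was 10.03 ± 0.60 (SD, n = 5). With that mean in the model as a covariate, 21 of the 35 genes had a higher value in the arrays labelled FMR1-KO and 14 a lower one. Their median was 0.05 and 0 passed (limma, lowest adjusted p = 0.9998). The difference of Irf8 was then 0.10 ± 0.11 (SE), that of B2m -0.02 ± 0.11 (SE), that of H2-K1 0.25 ± 0.13 (SE), that of Tapbp -0.13 ± 0.10 (SE) and that of Psmb8 -0.15 ± 0.11 (SE). With those 3 arrays left out in place of the covariate, 30 of the 35 again had a lower mean, with a median of -0.12 and 4 at an unadjusted p under 0.05. On the arrays kept, the microglia marker mean was 10.67, 10.88, 10.79 and 10.86 for Control and 10.51, 10.53 and 10.25 for labelled FMR1-KO. Leaving out the 3 arrays thus did not remove the microglia marker difference between the groups. Over all genes in that fit the median was -0.02, and 8.9% had an unadjusted p under 0.05 (limma). Psmb8 then differed by -0.38 ± 0.12 (SE) and Tapbp by -0.33 ± 0.12 (SE), with 0 members past the test (lowest adjusted p = 0.351).

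**Figure D4:**
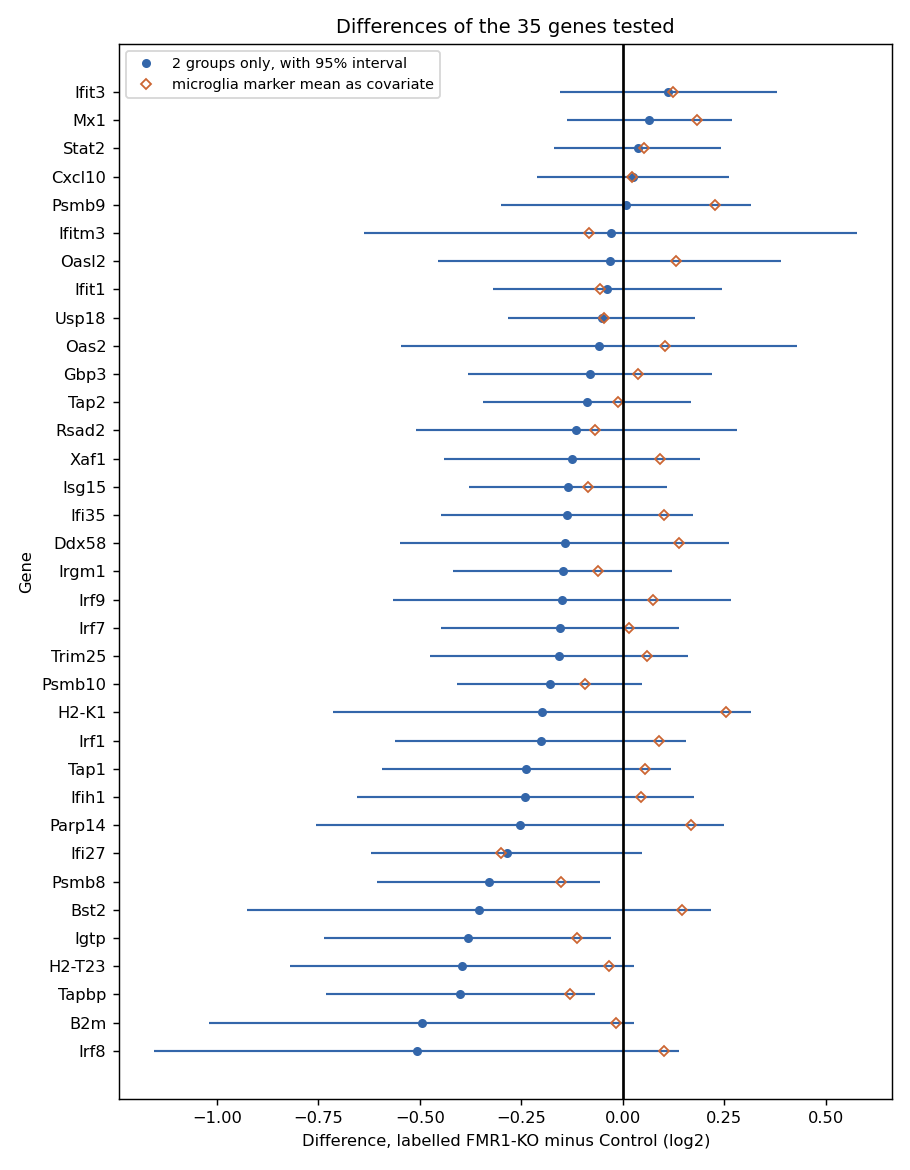
Circles with lines give the log2 difference (labelled FMR1-KO minus Control) of the 35 genes tested with its 95% interval, and open diamonds the difference once the mean of microglia markers was in the model. Intervals of Tapbp, Psmb8 and Igtp lie below 0, and the diamonds of 21 genes lie above it.

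On Control array 5, where most of the list peaked, the levels of cell type markers were as follows. The microglia marker mean there, 10.86, was between those of Control arrays 4 and 3, and 10 of the 23 microglia markers, among them Tmem119, Csf1r and Itgam, were highest on that array, as were 0 of 17 astrocyte markers. Retnlg, a granulocyte gene whose mean was below the filter, had a level of 6.46 on Control array 5 and of 4.74 to 5.44 on the 9 others, and Mmp8, a neutrophil collagenase, read 6.56 against 5.21 to 5.78. The mean of 7 granulocyte markers, 5 of them above the filter and 5 highest on that array, was 6.19 on Control array 5, 5.37 to 5.74 on the other Control arrays and 5.33 to 5.87 on the arrays labelled FMR1-KO, where array 1 was the highest. Camp, a granule gene below the filter, was at 5.04 on Control array 5, within its range of 5.01 to 5.39. Ngp, a granulocyte marker above the filter, read 6.52 there, below 6.69 on Control array 4 and 7.20 on the labelled FMR1-KO array 1. The mean of 8 markers of perivascular macrophages and monocytes, 4 of them highest on that array, was also highest there, at 6.36, with 5.99 to 6.28 on the other Control arrays and 5.65 to 6.09 on the arrays labelled FMR1-KO. The mean of 13 endothelial markers, 4 of them highest on that array, was 6.91 there, 6.57 to 6.85 on the other Control arrays and 6.38 to 6.58 on the arrays labelled FMR1-KO. The mean of 6 pericyte markers, 1 of them highest on that array, was 7.38 there, 7.04 to 7.48 over all Control arrays and 7.29 to 7.56 on the arrays labelled FMR1-KO. The mean of 11 lymphocyte markers, 7 of them above the filter and 5 highest on that array, was 5.69 there and 5.48 to 5.70 on the others. Those 5 were Cd3e, Cd3g, Gzma, Gzmb and Cd79a, of which Cd3g and Gzma were below the filter, as was the T cell gene Cd8a. The part of any of these cell types in the peak was not tested.

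**Figure D5:**
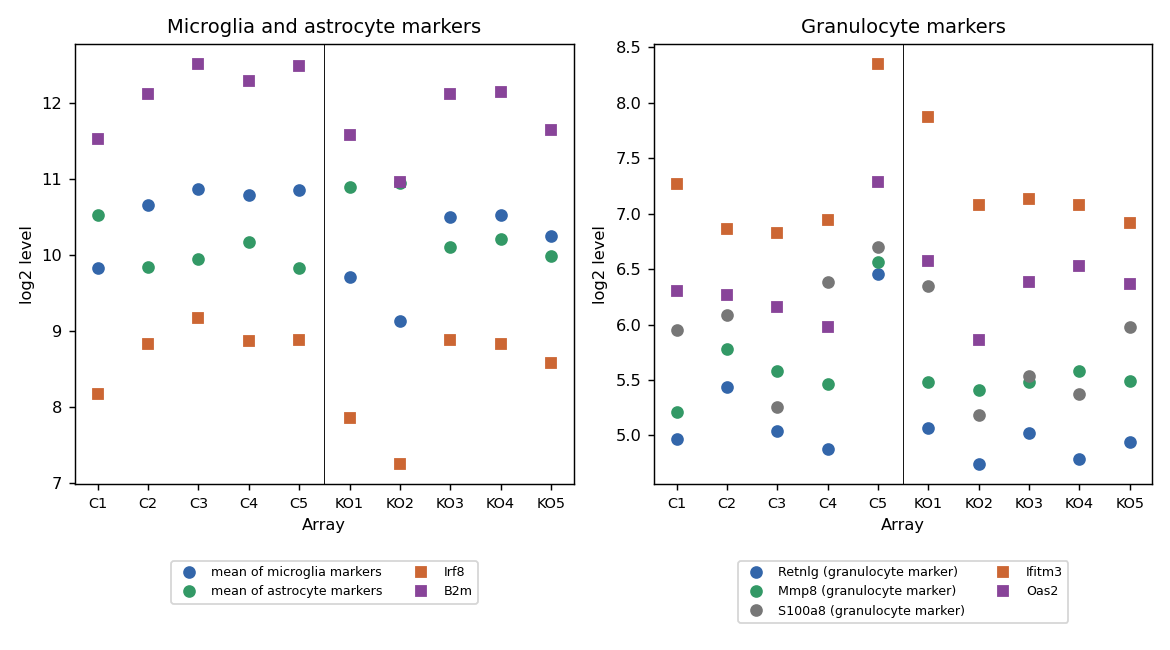
Points give log2 levels on each array (C, Control; KO, labelled FMR1-KO), on the left the means of microglia and astrocyte markers with Irf8 and B2m, on the right 3 granulocyte markers with Ifitm3 and Oas2. Irf8 and B2m are lowest where the microglia mean is lowest, and Retnlg, Mmp8, Ifitm3 and Oas2 are highest on Control array 5. The 3 granulocyte markers shown are among the 5 of 7 that were highest on that array.

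A gap within a group was judged by the distance of the extreme array to its neighbour over the group's range, with 0.71 as the 95% critical value for 5 arrays. Of the 36 genes found, 5 had such a gap among Control arrays and 3 among the arrays labelled FMR1-KO, where 6.85% and 5.05% of all genes tested had one. Upward gaps on Control array 5 were seen for Oas2, Oasl2, Ifitm3 and Gbp3, against 0.474% of all genes. With equal array medians the 8 gaps were 4.

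Genes that send and receive interferon signals were read from further lists. Of 12 measured receptor and signalling genes, 9 had a lower mean on the arrays labelled FMR1-KO, where 53.2% of all genes tested did. The median of the 12 was -0.21 and 0 of them passed the test (limma). The receptor subunits Ifngr1 and Ifnar2, for interferon gamma and type I interferon, differed by -0.54 ± 0.23 (SE) and -0.39 ± 0.17 (SE) (adjusted p = 0.654 for both), and Irf2, a repressor of interferon responses, by -0.24 ± 0.12 (SE). Control array 5 was the highest for 9 of the 12, against 13.9% of all genes tested. In 5 of the 12, Ifngr1 and Ifnar2 among them, the 3 lowest arrays were Control array 1 and labelled FMR1-KO arrays 1 and 2. These arrays had the lowest microglia markers, and 7.24% of all genes tested had them as their 3 lowest. The part of microglia in the lower means of these genes was not tested. Of 10 nucleic acid sensing genes 8 had a lower mean, with a median of -0.14 and 0 past the test. The adaptor Myd88 differed by -0.45 ± 0.21 (SE) and the endosomal receptors Tlr7 and Tlr9 by -0.70 ± 0.33 (SE) and -0.45 ± 0.25 (SE), with the same 3 arrays lowest for Tlr9. Of 4 measured interferon ligands, 0 passed. The type III ligand gene Ifnl3 differed by -0.36 ± 0.26 (SE) and the type I gene Ifna1 by 0.08 ± 0.09 (SE), while Ifng, the gene of interferon gamma, read 5.47 to 5.85 on Control arrays and 5.46 to 5.76 on the arrays labelled FMR1-KO, near the filter.

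Interferon-induced and class I genes beyond the 39 were counted as well. Of 31 other interferon-induced genes, 20 had a lower and 11 a higher mean, with a median of -0.07 and 0 past the test (limma). Over all genes tested, 53.2% had a lower mean. The mitochondrial kinase gene Cmpk2 differed by 0.35 ± 0.13 (SE) (limma adjusted p = 0.654) and the ubiquitin ligase and antibody receptor Trim21 by -0.24 ± 0.12 (SE). The chemokine Ccl2 differed by -0.42 ± 0.23 (SE). It was 1 of 11 genes of the 31 that were also lowest on those 3 arrays, against 7.24% of all genes tested. The GTPase gene Gbp7 and the chemokine gene Ccl5 stood out on Control array 5, at 8.98 against at most 8.49 and 7.58 against at most 7.27 on the other arrays. They were chosen after their values were seen. Of 14 further class I pathway genes, 11 had a lower mean, with a median of -0.12 and 0 past the test. The chaperones Pdia3 and Canx differed by -0.26 ± 0.10 (SE) and -0.24 ± 0.12 (SE), and the proteasome activator Psme1 by -0.29 ± 0.12 (SE).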

How the data were processed

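The authors deposited 1 table of log2 signal per probe set for 10 arrays, 5 Control and 5 labelled FMR1-KO. Per the labels' protocols, sorted cells' cDNA was amplified and biotin-labelled with Affymetrix kits, and per the series' design text GeneSpring 13.1.1 was used. How the authors corrected background, normalized and summarised probes is not stated in these sources. The log2 scale was read from the deposited values, which ran from 4.31 to 13.9 with array medians of 6.11 to 6.24. Precision is limited by the number of arrays.

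Of 33793 probe sets, 23521 had 1 gene symbol in the platform annotation, 1814 several and 8458 none, and all 36 genes found matched RefSeq by gene ID with the same symbol. Using limma 3.58.1 (R 4.3.3), lmFit and eBayes were run over 17712 genes. Tests were two-sided, p-values were adjusted over all these genes by Benjamini-Hochberg, and SE was taken from the moderated variance. Both steps were tested on simulated data.

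Members, lists and most alternatives were chosen with earlier results of these data known. Levels on every array are given for a preset set of members, the 8 with the smallest unadjusted p and those with a single-array gap. From each other list, differences are given for up to 3 genes of smallest p. Alternatives were other normalization, filters, probe set rules, array weights and variance settings, a microglia covariate, a block on the replicate number and left-out arrays. The rule on the 3 lowest arrays, and the fit without them, were added after the data were seen.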

Additional observations from a re-analysis of the deposited data

Results flagged for a closer look

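In 8 cases 1 array stood apart from the other 4 of its group, by a gap of more than 0.71 of the group's range. Chance flags about 1 in 20 groups, and 6.85% of all genes tested had such a gap among Control arrays and 5.05% among the arrays labelled FMR1-KO. Among Control arrays 4 of the 5 gaps were upward on array 5. Oas2 read 7.29 there and 5.98 to 6.30 on its neighbours, Oasl2 read 7.03 against 5.94 to 6.22, Ifitm3 read 8.35 against 6.83 to 7.27, and Gbp3 read 7.04 against 6.42 to 6.58. Tapbp was low on Control array 1, at 8.49 against 8.97 to 9.10.

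Among the arrays labelled FMR1-KO, Ifitm3 read 7.87 on array 1 and 6.92 to 7.13 on the others. Oas2 read 5.86 on array 2, below 6.37 to 6.57, and Usp18 read 6.20 on array 5, below 6.43 to 6.47.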

How the results depend on the processing

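Of the 35 differences under the settings other than leaving out 1 array, 359 values kept their direction and 21 reversed, and 0 passed or lost the threshold (limma). The lowest adjusted p of a member was 0.3195 with all 10 arrays and 0.206 over all settings. The microglia covariate turned Bst2 to 0.15, Ddx58 to 0.14, Gbp3 to 0.037, H2-K1 to 0.25, Ifi35 to 0.10, Ifih1 to 0.045, Irf1 to 0.089, Irf7 to 0.015, Irf8 to 0.10, Irf9 to 0.075, Oas2 to 0.10, Oasl2 to 0.13, Parp14 to 0.17, Tap1 to 0.054, Trim25 to 0.058 and Xaf1 to 0.092. Without the 3 low-microglia arrays Ddx58 was 0.010, Oas2 0.0021, Psmb9 -0.012 and Stat2 -0.057, and with array weights Stat2 was -0.0096. Leaving out 1 array kept 329 values and reversed 21, over ranges of -0.038 to 0.078 for Cxcl10, -0.14 to 0.030 for Gbp3, -0.13 to 0.061 for Ifit1, -0.19 to 0.25 for Ifitm3, -0.16 to 0.16 for Oas2, -0.10 to 0.17 for Oasl2, -0.11 to 0.066 for Psmb9, -0.22 to 0.056 for Rsad2, -0.010 to 0.094 for Stat2 and -0.12 to 0.022 for Usp18. The count at an unadjusted p under 0.05 was 0 with the covariate, 1 without the Xist-high arrays and 0 to 8 when 1 array was left out. Of all genes, 4.4% passed that level with the covariate and 5.47% without Control array 5. The labels number the replicates and state no pairing. Correlations of same-numbered deviations ran from -0.02 to 0.53, highest for number 1, and 1 of 10 arrays correlated best with its own number. Such correlations cannot exclude a pairing or a shared batch. With the replicate number as a block the unadjusted count was 7, in a fit whose share over all genes is not given here, and 0 passed the adjusted test. Over all genes, 0 to 1 passed when 1 array was left out (Cnbd2 without Control array 5) and 1, Tlcd1, without the 3 low-microglia arrays. The single-array gaps were 4 under equal medians. The causes of these changes were not tested, and the covariate does not test a cause. Values near the dim end of the arrays, as for Mx1 and Isg15, have less signal over background, and 5 arrays a group limit the precision.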

Other observations

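MHC class II genes, which present peptides to helper T cells, were read from a separate list. Of 10 measured, 9 had a lower mean on the arrays labelled FMR1-KO, where 53.2% of all genes tested did. The median difference of the 10 was -0.19 and 0 of them passed the test in limma. The peptide exchange gene H2-DMa read 7.88 ± 0.28 (SD, n = 5) on Control arrays and, in the group labelled FMR1-KO, 7.29 ± 0.28 (SD, n = 5), a difference of -0.58 ± 0.16 (SE) (limma adjusted p = 0.654). H2-Ob, an inhibitor of that exchange in B cells, differed by -0.24 ± 0.14 (SE) and was lowest on Control array 1 and the labelled FMR1-KO arrays 1 and 2, the arrays with the lowest microglia markers. The difference of Rfxank, a subunit of the class II promoter complex, was 0.24 ± 0.11 (SE). Control array 5 was the highest for 4 of the 10, against 13.9% of all genes tested. There H2-Aa read 7.31 against 5.97 to 6.83 on the other arrays.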
